A study of Mus musculus with 11 samples.

Results

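Fibro-adipogenic progenitors (FAPs) are the resident connective tissue cells of skeletal muscle, and 9 genes that mark them were followed here: Pdgfra, Dcn, Lum, Pi16, Dpp4, Cd34, Ly6a, Mfap5 and Smoc2. They were taken by symbol from the deposited expression table, and all 9 were found among its 18269 genes. All 9 also passed the filter on low values, as did 13187 genes in all. The 11 libraries hold RNA of the tibialis anterior, a fast muscle at the front of the lower leg, from aged C57BL/6 mice (21 to 24 months). The mice had been injected with saline (4 libraries, replicates 2, 3, 4 and 6), with young serum (4 libraries, replicates 1 to 4) or with young serum after depletion of EVs, extracellular vesicles, which are small membrane-bound particles shed by cells (3 libraries, replicates 2 to 4). The protocol notes in the labels name EV injection and an injury model in all groups, while the sources used here give neither the kind and time of injury nor the doses. The comparisons address what serum of young animals does to old muscle and whether its EVs matter for that. Nothing in the labels ties the libraries to separate animals, so the p-values reflect only how much these samples vary, and part of that may be technical.

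FAPs lie between muscle fibres and around vessels, carry the receptor tyrosine kinase PDGFRA, and make much of the collagen and proteoglycan of the muscle's connective tissue. After injury they multiply for a short time, clear debris and feed satellite cells, the muscle stem cells, with growth factors, and in aged or diseased muscle they can turn into fat cells or scar-forming fibroblasts. A subset near large vessels, the adventitial fibroblasts, carries Pi16 and Dpp4, while those among the fibres carry more Smoc2, Lum and Cxcl14.

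The 9 genes differ in how well reads can be assigned to them. Dcn, Lum, Mfap5 and Smoc2 shared no 50-base stretch of their exons with another gene of GENCODE M21, whereas 19.0% of all such stretches of Ly6a were shared. Those shared with the neighbouring family member Ly6c1 made up 15.0% of all stretches of Ly6a. The first 120 bases of the reading frames of both genes are shown to compare them, from the GENCODE M21 transcripts on mm10, 5′ to 3′, with the differing bases in capitals. Ly6a lies on chromosome 15, 74994877 to 74998031, and Ly6c1 at 75044018 to 75048830, both on the minus strand.
Ly6a: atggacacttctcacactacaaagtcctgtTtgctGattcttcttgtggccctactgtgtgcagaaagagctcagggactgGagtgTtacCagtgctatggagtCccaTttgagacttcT
Ly6c1: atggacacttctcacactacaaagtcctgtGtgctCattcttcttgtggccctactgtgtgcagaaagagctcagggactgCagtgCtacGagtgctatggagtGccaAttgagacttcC
Of these 120 bases, 112 were identical, with a longest identical run of 45, and 8 differed. No shared 50-base stretch therefore lies wholly within the bases shown. The sources used here do not say how reads that fit both genes were counted, so the level of Ly6a is uncertain in this respect. Antisense or overlapping gene models of GENCODE M21 lie on the opposite strand of Pdgfra, Pi16, Dpp4, Cd34 and Smoc2, and whether strand was used in the counting is not stated either.

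Promoter sequence was at hand for Pdgfra, Dpp4, Cd34 and Pi16 in the RefSeq table of GRCm38.p6, placed by the RefSeq start site. The last base before the RefSeq start of Pi16, 29318881, lies inside the GENCODE gene model, which starts at 29317680. The 200 bases before the start sites of Pdgfra (chr5:75152051-75152250, plus strand) and Dpp4 (chr2:62412232-62412431, minus strand) are shown 5′ to 3′, as the receptor that defines the cells and a peptidase that defines a subset of them. Capitals mark matches to any of 6 motifs, each searched on both strands.
Pdgfra: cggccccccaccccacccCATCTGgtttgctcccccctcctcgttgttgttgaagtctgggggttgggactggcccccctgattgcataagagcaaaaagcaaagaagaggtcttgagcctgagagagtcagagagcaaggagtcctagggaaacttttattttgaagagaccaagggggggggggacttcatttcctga
Dpp4: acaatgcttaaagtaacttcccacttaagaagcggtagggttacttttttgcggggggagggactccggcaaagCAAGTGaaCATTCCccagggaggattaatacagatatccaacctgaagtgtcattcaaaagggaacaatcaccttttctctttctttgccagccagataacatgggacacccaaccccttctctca
Within 250 bases before the start, the E-box letters CANNTG were in 2 of the 4 promoters (Pdgfra and Dpp4), against 66.2% of 32851 RefSeq promoters. The TEAD letters GGAATG were in 1 of 4, Dpp4, against 12.6% of promoters. The TATA box letters TATAAA were likewise in 1 of 4, again Dpp4, against 12.4%, before the stretch shown. The AP-1 letters TGANTCA were in none of these 4 windows, against 6.75% of all promoters. The same held for the GC box letters GGGCGG, against 32.7%, and for the SMAD letters CAGACA, against 17.1%. No 2 matches shown overlap.

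Levels are given as CPM, read counts scaled to a total of 1e+06 over the genes in the table. Divided by the length of the exons, the order over the 11 libraries (mean ± SD) ran from Dcn at 37.8 ± 10.99 and Ly6a at 33.0 ± 9.32 CPM per kilobase through Smoc2 at 11.7 ± 2.56 to Lum at 5.61 ± 1.70, Cd34 at 5.14 ± 1.13 and Pi16 at 4.68 ± 2.03. Mfap5 stood at 2.84 ± 0.905, Pdgfra at 1.43 ± 0.414 and Dpp4 at 0.446 ± 0.158 CPM per kilobase. Dcn and Ly6a overlapped within their spread, as did Lum, Cd34 and Pi16. The steps from Ly6a to Smoc2, from Smoc2 to Lum, from Mfap5 to Pdgfra and from Pdgfra to Dpp4 were larger than the SDs of both neighbours. Every marker was above 0 in every library, the lowest value being 1.41 CPM for Dpp4. As a check of the tissue, Acta1, the actin of skeletal muscle fibres, was between 26113 and 38992 CPM. Depth, read from the step size of low values, was 36.4 to 42.2 times 1e+06 reads per library.

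**Figure D1:**
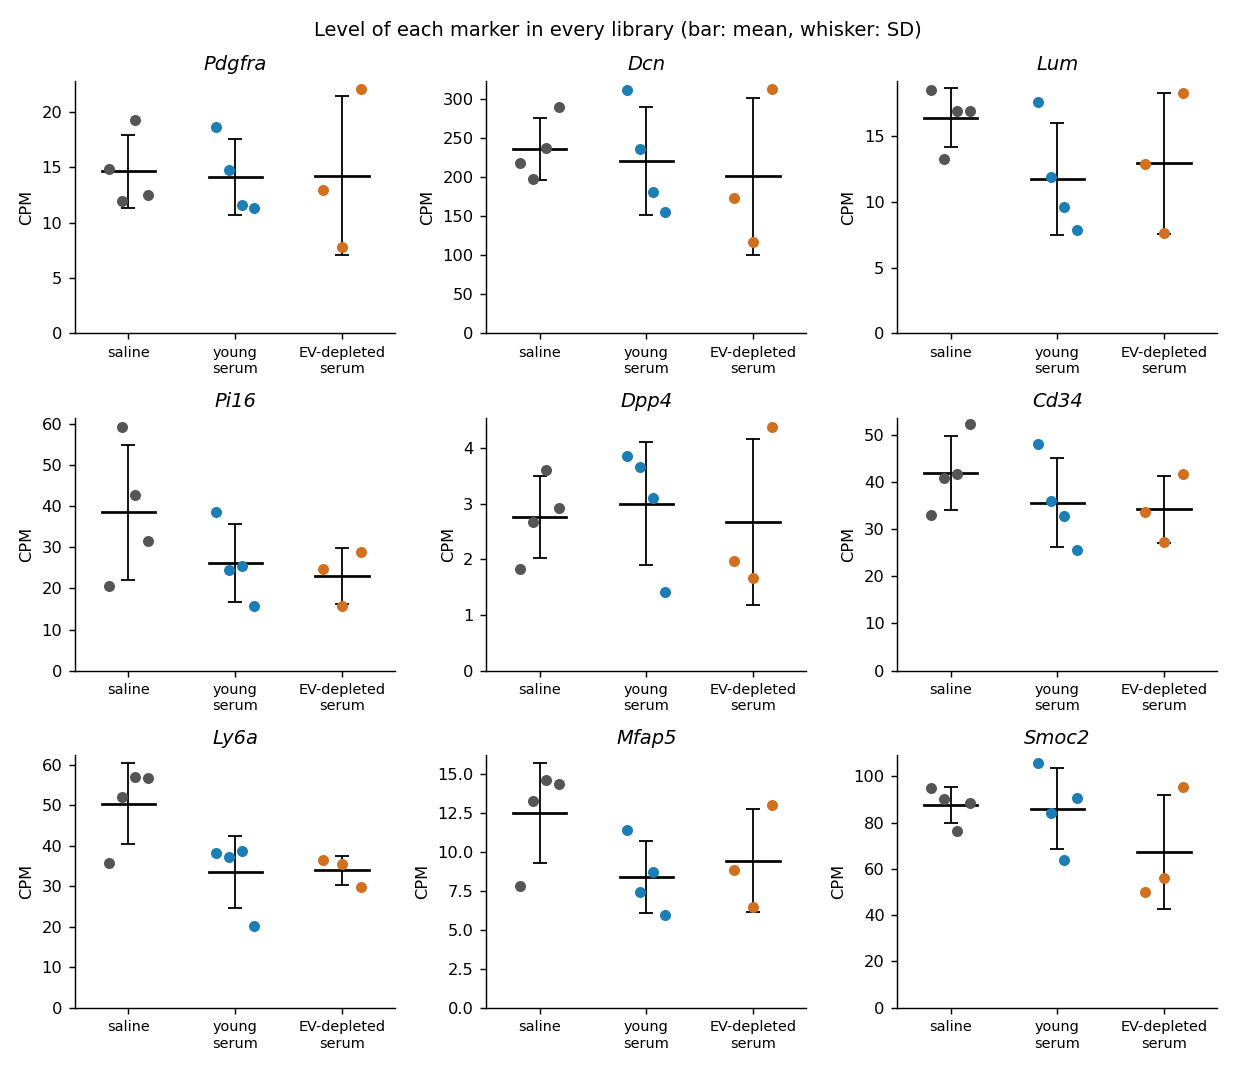
Level of each of the 9 markers in every library, as CPM on a linear axis from 0, by group (saline n = 4, young serum n = 4, EV-depleted young serum n = 3); points are libraries, bars are group means and whiskers are SDs. For every marker the groups overlap, and Ly6a in young serum replicate 4 stands below the other 3 libraries of its group at 20.3 CPM.

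Among the surface proteins, Pdgfra (chromosome 5, 75152292 to 75198215) encodes the receptor for platelet-derived growth factors that is used to sort FAPs. Its level was 14.8, 12.0, 19.3 and 12.5 CPM in saline replicates 2, 3, 4 and 6, 18.7, 14.8, 11.6 and 11.3 CPM in young serum replicates 1 to 4, and 12.9, 7.81 and 22.1 CPM in EV-depleted serum replicates 2 to 4. Both the lowest and the highest library were in the EV-depleted group, and the 3 groups overlapped. The group means were close, at 14.7 ± 3.31, 14.1 ± 3.41 and 14.3 ± 7.21 CPM (SD). In limma's test the log2 difference was -0.05 ± 0.27 (SE) for young serum and -0.12 ± 0.29 for EV-depleted serum against saline.

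Dpp4 (chromosome 2, 62330073 to 62412231) encodes the cell surface dipeptidase CD26. It was the weakest of the 9, at 1.83, 2.66, 3.61 and 2.92 CPM in the saline libraries, 3.85, 3.65, 3.10 and 1.41 CPM after young serum and 1.97, 1.66 and 4.37 CPM after EV-depleted serum, in the same order of replicates. Here too the groups overlapped, with the lowest library in young serum and the highest in EV-depleted serum. Dpp4 was the one marker with a higher mean in young serum than in saline, 3.001 ± 1.11 against 2.75 ± 0.735 CPM, a log2 difference of 0.06 ± 0.28 that did not pass the test.

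Cd34 (chromosome 1, 194938819 to 194961279) encodes a sialomucin that endothelial and satellite cells carry as well. The saline libraries held 33.0, 40.8, 41.6 and 52.2 CPM, those of young serum 48.1, 35.9, 32.8 and 25.5 CPM, and those of EV-depleted serum 33.7, 27.3 and 41.6 CPM. Saline replicate 6 was the highest and young serum replicate 4 the lowest. The means were 41.9 ± 7.86, 35.6 ± 9.40 and 34.2 ± 7.13 CPM, and the log2 differences from saline were -0.25 ± 0.20 and -0.29 ± 0.22, within the spread of the libraries.

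Ly6a encodes Sca-1, a protein anchored to the membrane by a lipid that is also made by endothelial cells and lymphocytes. It was at 35.7, 52.1, 56.9 and 56.6 CPM in saline, at 38.2, 37.3, 38.6 and 20.3 CPM after young serum and at 36.5, 35.4 and 29.9 CPM after EV-depleted serum. The libraries of saline replicates 3, 4 and 6 were above every serum library, while saline replicate 2 lay among them. Means were 50.3 ± 10.003 CPM (saline), 33.6 ± 8.90 CPM (young serum) and 33.9 ± 3.53 CPM (EV-depleted serum). The log2 difference was -0.59 (95% interval -1.06 to -0.12; unadjusted p = 0.0180, adjusted p = 0.183, limma) for young serum and -0.54 (-1.04 to -0.03; unadjusted p = 0.0396, adjusted p = 0.411) for EV-depleted serum. Neither passed after adjustment over all genes. An exact permutation test of mean CPM, two-sided, gave p = 0.114 for both, where 4 against 4 libraries can reach 0.0286 and 4 against 3 can reach 0.0571. Saline replicate 4 was the library richest in adipocyte transcripts, and saline replicate 6 the one richest in slow fibre transcripts. The 10 lymphocyte genes summed to 152 and 33.8 CPM in these libraries, against at most 5.67 CPM in any other. The part of such cells in the Ly6a levels was not tested. Without both libraries the differences were -0.40 and -0.34. Without young serum replicate 4 the first was -0.37.

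Of the secreted proteins, decorin (Dcn; chromosome 10, 97479609 to 97518143) and lumican (Lum; 97565128 to 97572703) are small leucine-rich proteoglycans that bind collagen fibrils, and their genes are neighbours with no protein-coding gene in the 46984 bases between them. Dcn was at 217.6, 197.0, 236.4 and 289.6 CPM in saline, 311.3, 235.6, 180.2 and 155.5 CPM in young serum and 173.3, 117.3 and 311.9 CPM in EV-depleted serum. The serum libraries thus reached both above and below all saline libraries. Its log2 difference from saline was -0.13 ± 0.28 for young serum and -0.33 ± 0.31 for EV-depleted serum.

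Lum was at 18.5, 13.3, 16.9 and 16.9 CPM in saline, at 17.6, 11.8, 9.57 and 7.82 CPM in young serum and at 12.8, 7.60 and 18.2 CPM in EV-depleted serum. In young serum 3 of 4 libraries lay below every saline library, and replicate 1 lay within the saline range. The means were 16.4 ± 2.21, 11.7 ± 4.25 and 12.9 ± 5.32 CPM. For young serum the log2 difference was -0.50 (95% interval -1.08 to 0.08, adjusted p = 0.278, limma), and for EV-depleted serum it was -0.39 ± 0.29, so neither passed.

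Pi16 (chromosome 17, 29317680 to 29330593) encodes a peptidase inhibitor of adventitial fibroblasts. It varied most within saline, with 20.6, 59.3, 42.7 and 31.5 CPM, against 38.7, 24.6, 25.4 and 15.8 CPM in young serum and 24.8, 15.6 and 28.8 CPM in EV-depleted serum. Saline replicate 3 was the highest of all libraries and saline replicate 2 was among the serum libraries. The log2 differences were -0.51 (-1.23 to 0.21) and -0.66 (-1.43 to 0.12), and both intervals include 0.

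Mfap5 (chromosome 6, 122505845 to 122529290) encodes a glycoprotein of the microfibrils on which elastic fibres are built. The saline libraries held 7.80, 13.3, 14.6 and 14.4 CPM, those of young serum 11.4, 7.42, 8.71 and 5.98 CPM and those of EV-depleted serum 8.83, 6.46 and 13.0 CPM. All 4 young serum libraries were below the saline mean of 12.5 ± 3.21 CPM, but saline replicate 2 was in their range. The log2 difference was -0.52 (-1.07 to 0.03, adjusted p = 0.244, limma) for young serum and -0.39 ± 0.27 for EV-depleted serum.

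Smoc2 (chromosome 17, 14279506 to 14404790) encodes a secreted calcium-binding protein of the matrix. It was at 95.1, 90.2, 76.5 and 88.5 CPM in saline, 106.0, 84.1, 63.9 and 90.5 CPM in young serum and 50.1, 55.9 and 95.5 CPM in EV-depleted serum. Replicates 2 and 3 of the EV-depleted group were the lowest of all 11 libraries, while replicate 4 was above all but young serum replicate 1. The means were 87.6 ± 7.89, 86.1 ± 17.4 and 67.2 ± 24.7 CPM. Young serum differed from saline by -0.04 ± 0.20 and EV-depleted serum by -0.43 (-0.91 to 0.04). Between both sera the log2 difference was 0.39 (-0.09 to 0.86; unadjusted p = 0.0996, limma). Without EV-depleted replicate 4 it was 0.67 and the difference of EV-depleted serum from saline was -0.71, with adjusted p = 0.946 and 0.772 (limma).

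Against saline, then, none of the 9 markers passed an adjusted p of 0.05 after young serum by limma, where 0 of the 13187 genes (0%) did. Ly6a alone had an unadjusted p below 0.05, 1 of 9, where 11.4% of all genes were lower at that level and 21.9% differed in either direction. The groups were apart without overlap for 0 of 9 markers, against 12.2% of all genes. The point estimates were below 0 for 8 of 9 markers, against 52.5% of genes, with a median of -0.25, against -0.02 over all genes. With the deposited TPM values 6 of 9 were below 0, Pdgfra, Dpp4 and Smoc2 being the others. Leaving out young serum replicate 4 gave a median of -0.10, leaving out saline replicate 6 gave -0.14, and leaving out young serum replicate 1 gave -0.40. It was -0.13 without both saline replicates 4 and 6.

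After EV-depleted serum the result was alike in form: 0 of 9 markers and 0 of 13187 genes (0%) passed, and again Ly6a alone, 1 of 9, had an unadjusted p below 0.05 (5.59% of genes were lower at that level, 12.1% in either direction). No marker was without overlap, against 7.42% of genes. All 9 point estimates were below 0, against 50.4% of genes, with a median of -0.39, against -0.00 over all genes. The median was -0.14 without EV-depleted replicate 3, -0.62 without replicate 4 and -0.16 without saline replicates 4 and 6. Both comparisons share the saline libraries, so the same direction in both is no separate evidence.

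Set against each other, both sera gave no call either. Here 0 of 9 markers and 0 genes (0%) passed, no marker had an unadjusted p below 0.05 (2.23% of genes did, 294 genes), and 0 of 9 were without overlap, against 6.11% of genes. In young serum 6 markers had a higher and 3 a lower point estimate than in EV-depleted serum, against 48.7% of genes higher, with a median of 0.07. With the deposited TPM values, whose scaling moved the median of all genes from -0.00 to 0.10, 8 of 9 were higher, with a median of 0.18. The median was -0.07 without young serum replicate 1 and -0.11 without EV-depleted replicate 3. The interval of the difference ran from -0.63 to 0.92 for Pi16 and from -0.57 to 0.71 for Pdgfra, so these libraries do not show that both sera gave the same levels.

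**Figure D2:**
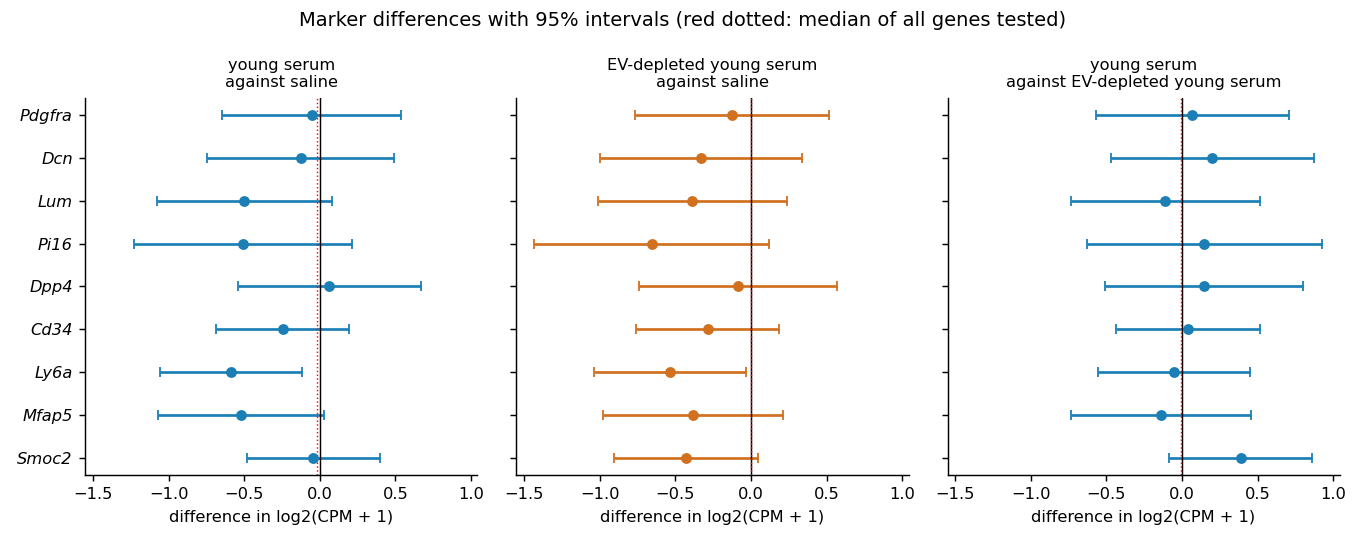
Log2 difference of each marker in the 3 comparisons, on the log2(CPM + 1) scale, with 95% intervals from limma (4 saline, 4 young serum and 3 EV-depleted libraries). The dotted line is the median of all genes tested. All intervals include 0 except both of Ly6a against saline, which run from -1.06 to -0.12 and from -1.04 to -0.03 before adjustment for 13187 genes.

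One other weighting changed calls. With weights for each library estimated by limma, Pi16 (-0.97, adjusted p = 0.0281), Ly6a (-0.59, adjusted p = 0.0411) and Mfap5 (-0.59, adjusted p = 0.0394) passed for young serum, among 3441 genes. Pi16 (-1.01, adjusted p = 0.0442, limma) and Smoc2 (-0.74, adjusted p = 0.0217) passed for EV-depleted serum, among 1794. Saline replicate 3, the library with the highest Pi16, weighed 3.32 there, and saline replicates 2, 4 and 6 weighed 0.563, 0.208 and 0.295. EV-depleted replicate 2, the library with the lowest Smoc2, weighed 4.19, and EV-depleted replicates 3 and 4 weighed 0.634 and 0.423. The estimate of the weights stopped before it converged.

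The markers varied widely between libraries of 1 group. Within young serum the median SD of the 9 was 0.438 on the log2 scale, against 0.149 over all genes, and 9 of 9 were above that median. Within EV-depleted serum it was 0.491 against 0.223, with 8 of 9 above, and within saline 0.290 against 0.305, with 3 of 9 above. Young serum replicate 1 was above the median of the 11 libraries for all 9 markers, and EV-depleted replicate 4 for 8 of 9. Young serum replicate 4 held 8 of 9 markers among its 3 lowest values and was the lowest library for 4 of them. EV-depleted replicate 3 had all 9 among the 3 lowest and likewise the lowest of 4. In depth, young serum replicates 1 and 4 held 39.2 and 39.1 times 1e+06 reads and EV-depleted replicates 3 and 4 held 38.5 and 38.6 times 1e+06. In whole muscle, fewer FAPs and less RNA of these genes per cell cannot be told apart.

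**Figure D3:**
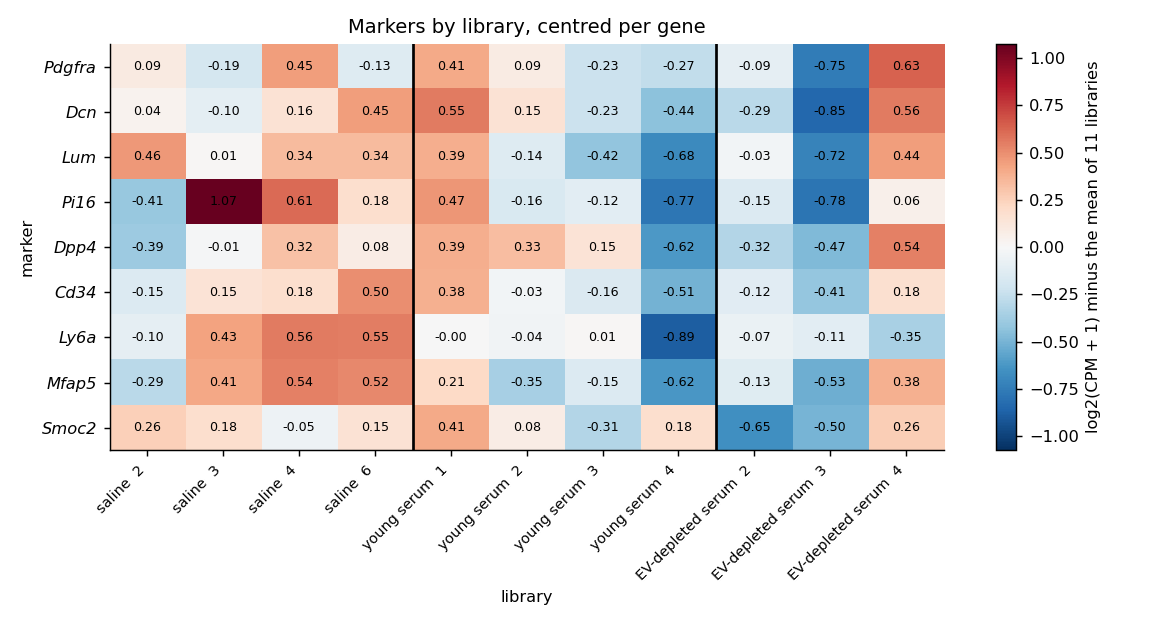
Each marker's log2(CPM + 1) minus its mean over the 11 libraries (colour, log2 units), with libraries in columns by group and markers in rows. Young serum replicate 4 and EV-depleted replicate 3 are low for nearly all rows, and young serum replicate 1 and EV-depleted replicate 4 are high for most.

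Over the 11 libraries most pairs of markers varied together: of 36 pairs, 35 had a positive Pearson correlation of log2(CPM + 1), with a median of 0.65 and a range from -0.04 to 0.89. With group means removed the median was 0.62, and without the 2 libraries farthest from the median of all markers, EV-depleted replicate 3 and young serum replicate 4, it was 0.48, with 33 pairs positive. Cd34 and Mfap5 were the closest pair over all libraries (0.89), and within groups the neighbouring genes Dcn and Lum were (0.93). Pdgfra went with Dcn (0.85) and Lum (0.80). Ly6a and Smoc2 were the least alike (-0.04, and -0.37 within groups), and Ly6a was near 0 with Pdgfra (0.11). These correlations describe 11 libraries that share groups and scaling, and carry no test.

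**Figure D4:**
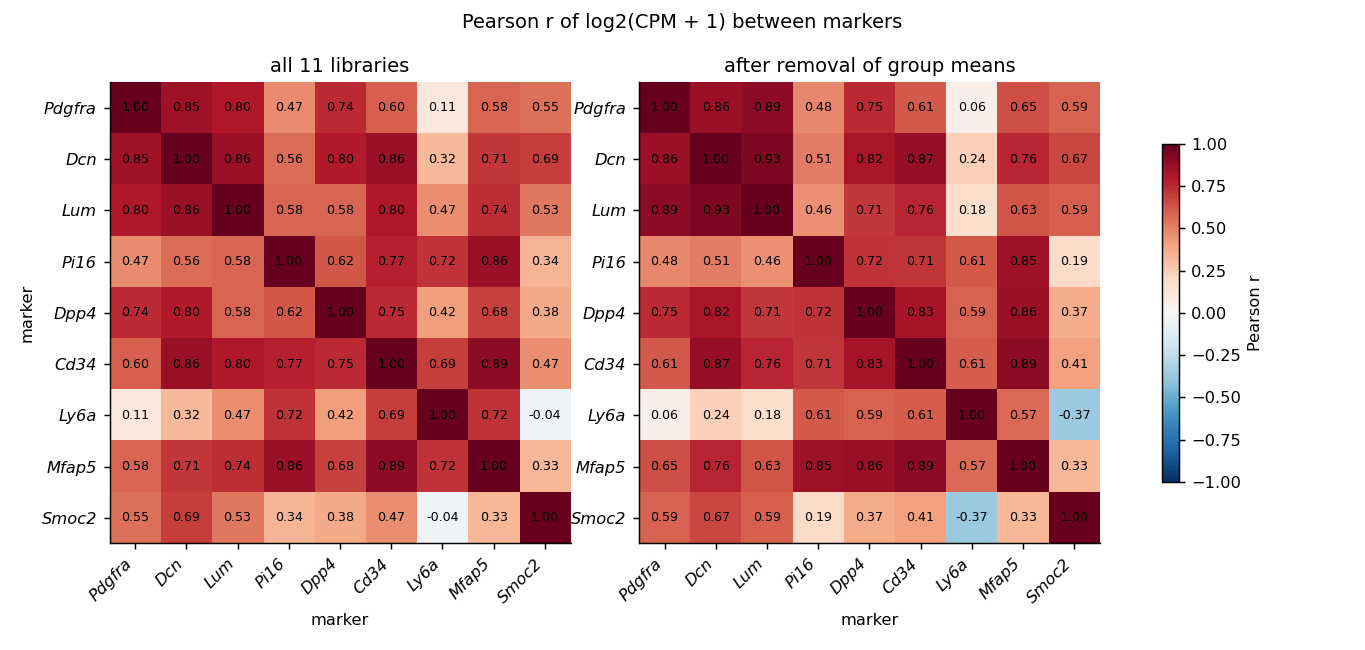
Pearson correlation of each pair of markers over the 11 libraries (left) and with group means removed (right), from -1 to 1 in colour. Cd34 with Mfap5 and Dcn with Lum are high in both panels, and the rows of Ly6a and Smoc2 hold the lowest values.

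Among 13178 other genes, the 10 most like the mean of the 9 markers (each centred on its mean) over the 11 libraries were Rnase4 (r = 0.97), Qpct (0.94), F13a1 (0.93), Cd209a (0.93), Pla1a (0.92), Dpep1 (0.92), Fap (0.92), Pcolce (0.91), Lrrc17 (0.90) and Mrc1 (0.90). The median over all these genes was 0.22, and 12 exceeded 0.9. Fap encodes a surface peptidase of fibroblasts and Pcolce an enhancer of procollagen processing, while F13a1, Cd209a and Mrc1 are known from resident macrophages and dendritic cells. Without EV-depleted replicate 3 and young serum replicate 4, Rnase4, a secreted ribonuclease, still had r = 0.91 and Fap 0.89, and Mrc1 had 0.78. Taken singly, Cd34 was most like Qpct (0.98), Ly6a most like the interferon-induced membrane protein gene Ifitm3 (0.98), Pdgfra most like Antxr2 (0.98), and Smoc2 had the least close neighbour, Cntnap2 (0.84).

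A second list of 24 FAP and fibroblast genes, collagens among them, was read beside the 9. None of the 24 passed in any comparison. After young serum 8 were higher and 16 lower than in saline, with a median of -0.13, and after EV-depleted serum 4 were higher and 20 lower, with a median of -0.36. Saline replicate 4 stood apart, with a sum of 4722 CPM over the 24 genes, against 1216 to 1552 CPM in the other saline libraries. Gsn alone made up 3562 CPM of that sum. The list's score, in which each gene counts alike, was 0.88 there and -0.23 to 0.035 in the other saline libraries. Without saline replicate 4, 18 were higher and 6 lower after young serum, with a median of 0.079. After EV-depleted serum 8 were then higher and 16 lower, with a median of -0.092. Htra3, a secreted serine protease, had the smallest p in both: its means were 46.96 ± 18.4 CPM in saline, 29.5 ± 3.47 with young serum and 28.1 ± 4.99 with EV-depleted serum, with unadjusted p of 0.0191 and 0.0150 and adjusted p of 0.185 and 0.403 (limma). Loxl1, which crosslinks elastin, was at 23.9 ± 7.04, 17.4 ± 3.01 and 16.6 ± 1.25 CPM in the same order of groups. Clec3b, the plasminogen-binding tetranectin, was at 40.1 ± 15.1, 27.5 ± 11.7 and 24.7 ± 5.30 CPM, and neither gene passed. The score of these 24 genes followed that of the 9 with r = 0.78, and 0.54 without EV-depleted replicate 3 and young serum replicate 4.

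Genes of the fibroblast subsets did not pass either. Of 8 tested adventitial genes 0 passed, with medians of -0.07 and -0.18 for young and EV-depleted serum against saline, and of 0.048 and -0.062 without saline replicate 4. Sema3c, a secreted guidance protein, was the sole one with an unadjusted p below 0.05 in either serum, where 10.5% and 6.49% of all genes were higher at that level, with means of 26.6 ± 5.78 CPM in saline, 36.3 ± 4.41 with young serum and 37.8 ± 12.1 with EV-depleted serum (adjusted p = 0.214 and 0.412, limma). Without saline replicate 4 its unadjusted p stayed below 0.05 for young serum and not for EV-depleted serum. Of 10 genes of fibroblasts among the fibres 0 passed, with medians of -0.25 and -0.40, and of 0.14 and -0.062 without saline replicate 4. Without saline replicates 4 and 6 they were 0.15 and 0.042. Cxcl14, a chemokine of this subset, was at 62.6 ± 13.9 CPM in saline, 50.6 ± 13.3 with young serum and 36.03 ± 5.26 with EV-depleted serum, with log2 differences of -0.31 and -0.76 (adjusted p = 0.346 and 0.355, limma).

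Of the ligands and receptors around PDGFRA, 6 were tested and 0 passed or had an unadjusted p below 0.05. Pdgfa, its main ligand, was at 27.1 ± 5.25 CPM in saline, 26.7 ± 4.60 with young serum and 21.4 ± 0.522 with EV-depleted serum, and Pdgfb, the ligand from endothelium that recruits pericytes, at 45.7 ± 9.20, 42.5 ± 6.38 and 37.8 ± 5.46 CPM. The log2 difference of Pdgfa from saline was -0.02 for young serum and -0.31 for EV-depleted serum (adjusted p = 0.951 and 0.435, limma). Of 13 tested genes of activated fibroblasts 0 passed, with medians of 0.04 and -0.11. After young serum 8 were higher and 5 lower than in saline, and after EV-depleted serum 5 were higher and 8 lower. Tgfb1, the growth factor that drives scar formation, was the sole one with an unadjusted p below 0.05. At that level 11.4% and 5.59% of all genes were lower. Its unadjusted p was 0.0299 and 0.0260, and its adjusted p 0.199 and 0.404 (limma). Means of Tgfb1 were 11.1 ± 6.37 CPM in saline, 6.11 ± 0.711 with young serum and 5.76 ± 0.874 with EV-depleted serum. Over the 11 libraries its median was 6.41 CPM and its highest value 20.7 CPM, so the saline libraries were uneven. The score of the activated fibroblast list was 0.68 in saline replicate 4 and -0.29 to -0.17 in the other saline libraries. This list was not recomputed without saline replicate 4. After young serum Tgfbr1 (0.52), Tnc (0.58) and Tgfbr2 (0.43) had point estimates above 0.

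The 9 markers include members of gene families. Of 11 tested small leucine-rich proteoglycans, Chad and Fmod, both known from tendon and cartilage, had higher means in young serum than in saline: 8.61 ± 3.90 against 2.91 ± 2.29 CPM for Chad (adjusted p = 0.180, limma) and 98.5 ± 28.5 against 54.4 ± 16.3 CPM for Fmod (adjusted p = 0.180). Neither passed. Of the 9 tested tendon genes, which include both, 4 were higher at an unadjusted p below 0.05 after young serum, against 10.5% of all genes, and 0 after EV-depleted serum, against 6.49%. Without saline replicates 4 and 6 these counts were 2 and 1. Of the Ly6 family, 4 genes were tested, and all had lower means in young serum. Ly6c1 was at 64.7 ± 12.8 and 45.7 ± 7.87 CPM in saline and young serum, and Ly6e, an interferon-induced member, at 102.2 ± 57.1 and 52.0 ± 10.8 CPM. Gpihbp1, an endothelial protein that holds lipoprotein lipase, was at 39.0 ± 24.6 and 17.2 ± 2.49 CPM. All 4 had an unadjusted p below 0.05, where 11.4% of all genes were lower at that level, and an adjusted p from 0.180 to 0.187 (limma). After EV-depleted serum 2 of 4 did, Ly6a and Ly6e, against 5.59% of all genes, while Ly6c1 was at 51.4 ± 9.68 CPM and Gpihbp1 at 21.7 ± 4.43 CPM. Without saline replicate 4 the counts were 4 and 1 of 4, and without saline replicates 4 and 6 they were 0 of 4 for each serum.

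Markers of other cells varied beside these genes, and their part in the values above was not tested. The macrophage list followed the 9 markers most closely among the lists of other cells, with r = 0.84 (0.68 without EV-depleted replicate 3 and young serum replicate 4). All 12 of its 12 genes were tested, none at 0 in any library, and their summed level was 131 to 349 CPM in saline, 56.9 to 163 in young serum and 74.4 to 129.6 in EV-depleted serum. Of the 12, 6 had lower means at an unadjusted p below 0.05 in each serum, against 11.4% and 5.59% of all genes, and none passed by limma. Without saline replicate 4, 2 and 3 of the 12 did, and without saline replicates 4 and 6, 0 and 1. The endothelial list, whose cells also carry Cd34 and Ly6a, had r = 0.34, with all 15 genes tested, none at 0, and sums of 413 to 654, 397 to 508 and 398 to 504 CPM. Of the 15, 5 were lower at an unadjusted p below 0.05 after young serum, against 11.4% of all genes. Egfl7, Cldn5, Sox18 and Esam had the smallest p by limma. After EV-depleted serum 2 were lower at that level (Sox18 and Eng), against 5.59% of all genes, and none passed in either serum. Point estimates were above 0 for 5 and below 0 for 10 after young serum, and for 6 and 9 after EV-depleted serum. Without saline replicate 4 the counts of lower genes at that level were 3 and 0, and 1 gene was higher in each serum. Without saline replicates 4 and 6 the counts of lower genes were 1 and 0, and 0 were higher. The lymphocyte list had 2 of 10 genes past the filter, Cd3e and Ptprc, and r = 0.66 (0.49 without EV-depleted replicate 3 and young serum replicate 4). Cd3d was listed at 0 in 2 libraries, Cd8a in 5 and Nkg7 in 1. Both genes past the filter were lower at an unadjusted p below 0.05 after young serum, against 11.4% of all genes. After EV-depleted serum 1 was, Ptprc, against 5.59%. Without saline replicate 4 the counts were 1 and 0, and without saline replicates 4 and 6 both were 0. The adipocyte list had r = 0.61. Its sum was 7261 CPM in saline replicate 4, against at most 794 CPM in any serum library, and its highest score was in that library.

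**Figure D5:**
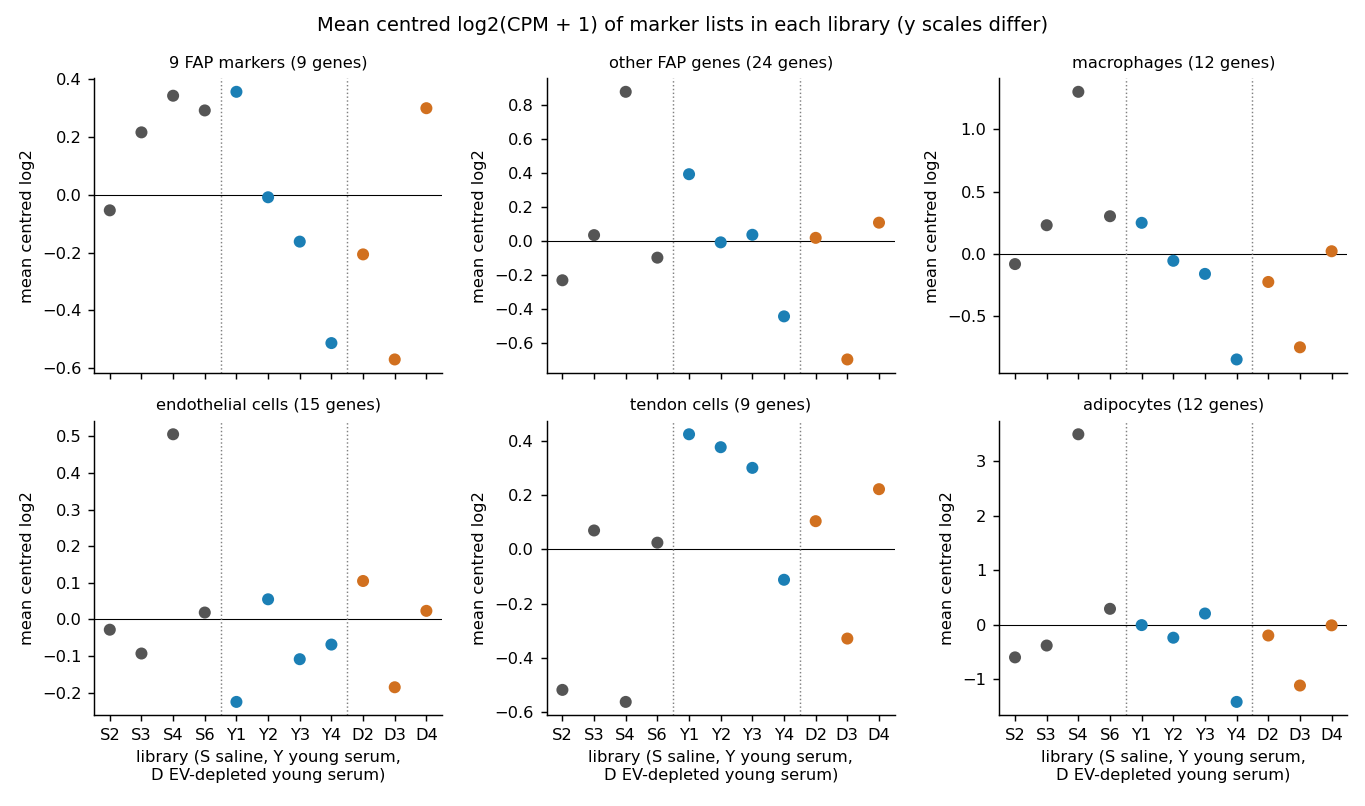
Mean of each gene list in every library, as log2(CPM + 1) centred on each gene's mean over the 11 libraries, for the 9 markers, the 24 other FAP genes, macrophages, endothelial cells, tendon cells and adipocytes; points are libraries, coloured by group, and the vertical scales differ. The 9 markers range from -0.57 in EV-depleted replicate 3 to 0.36 in young serum replicate 1, and the adipocyte list has 1 saline library far above all others.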

How the data were processed

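RNA-seq of 11 tibialis anterior libraries was analysed from the deposited CPM table, which the authors scaled to a total of 1e+06 over the genes listed; the values show an added offset of 0.0001. The deposited TPM table of the authors is CPM over gene span, introns included, as read from the values, and served as an alternative. FastQC, STAR, DESeq2 and mm10 are named, without versions or roles, per the submitters' processing notes. Only 75.5% to 78.8% of low values were whole multiples of 1 read within 0.1 reads, so no count model was fitted. Genes reaching 1 CPM in 3 or more libraries entered the test on log2(CPM + 1) by limma 3.58.1 in R 4.3.3 (3 groups in 1 fit, eBayes with trend, two-sided), with Benjamini-Hochberg adjustment over 13187 genes at 0.05. The pseudocount of 1 understates differences of low genes such as Dpp4. Scores are means of log2(CPM + 1) centred per gene. All 9 members were named, and of other lists at most 4 genes per comparison, those with the smallest p; likeness was Pearson's r. Members and lists were chosen with earlier results of these data known. The pipeline was tested on simulated data. Alternatives were another pseudocount, filter, scaling, weighting, block, group set and unit, and leaving out libraries. Positions and exon lengths come from GENCODE M21 (mm10), and promoters from RefSeq (GRCm38.p6).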

Additional observations from a re-analysis of the deposited data

Results flagged for a closer look

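Of 18 groups of 4 libraries checked (9 markers in saline and in young serum), 2 held a library far from the others by Dixon's ratio of gap to range above its 95% critical value; chance gives such a library in about 5% of groups. Ly6a was at 20.3 CPM in young serum replicate 4, against 37.3 to 38.6 CPM in the other 3 libraries, a ratio of 0.946. Mfap5 was at 7.80 CPM in saline replicate 2, against 13.3 to 14.6 CPM in the others, a ratio of 0.843.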

How the results depend on the processing

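Of 405 recomputed log2 differences of single markers, 360 kept their direction and side of the threshold, 40 changed sign and 5 newly passed. No marker passed outside the library weights, under which 3 markers and 3441 genes passed for young serum against saline, 2 and 1794 for EV-depleted serum against saline, and 24 genes between both sera; the cause was not tested. Leaving out 1 library gave 0 to 251 called genes (251 without saline replicate 2) and 0 to 5 (5 without saline replicate 2) against saline, and leaving out saline replicates 4 and 6 gave 2 genes for EV-depleted serum. Same-numbered deviations correlated from -0.28 to 0.30, and 1, 3 and 3 of 6 libraries correlated best with their own number. With 3 same-numbered pairs in each comparison, this cannot settle whether replicate numbers pair the libraries. With the replicate block 0, 6 and 0 genes passed in the 3 comparisons, and signs changed for Dpp4 (-0.019, young serum against saline) and, between both sera, Pdgfra (-0.067), Pi16 (-0.057) and Cd34 (-0.11).

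Other changes of sign were, for young serum against saline, Pdgfra 0.11 and Dcn 0.036 with weights, Pdgfra 0.0099 and Smoc2 0.026 with TPM, and Pdgfra 0.049 and Dcn 0.040 without saline replicates 4 and 6. For EV-depleted serum against saline they were Pdgfra 0.0075 with weights and Dpp4 0.12 without saline replicates 4 and 6, and between both sera Lum 0.0018 and Ly6a 0.067 with TPM. Leaving out 1 library moved, for young serum against saline, Pdgfra from -0.19 to 0.077, Dcn from -0.31 to 0.023, Dpp4 from -0.066 to 0.29 and Smoc2 from -0.15 to 0.091, and for EV-depleted serum Pdgfra from -0.48 to 0.22 and Dpp4 from -0.40 to 0.11. Between both sera it moved Pdgfra from -0.27 to 0.42, Dcn from -0.13 to 0.58, Lum from -0.42 to 0.16, Pi16 from -0.10 to 0.36, Dpp4 from -0.048 to 0.46, Cd34 from -0.11 to 0.19, Ly6a from -0.14 to 0.17 and Mfap5 from -0.36 to 0.10. Some other gene lists were also recomputed without saline replicate 4 and without saline replicates 4 and 6, which was chosen after seeing the data. These were the other FAP genes, both fibroblast subsets, the Ly6 family, and the tendon, macrophage, endothelial and lymphocyte lists. Values from this stand beside those lists. The remaining lists were not recomputed in this way, so their dependence on these saline libraries was not tested. How far depth limits these comparisons was not tested.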

Other observations

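Of 14 secreted factors in the table through which FAPs act on their niche, 8 were tested and 0 passed in any comparison by limma. Spp1, osteopontin, was at 1.93 ± 1.26 CPM in young serum and 4.56 ± 2.17 CPM in EV-depleted serum. It was the sole one of the 8 with an unadjusted p below 0.05 between both sera, against 2.23% of all genes. Its log2 difference was -0.95 (adjusted p = 0.99998, limma), at low levels of 0.851 to 6.86 CPM over the 11 libraries. Il15, a cytokine made by muscle and stroma, was at 4.29 ± 1.19, 3.29 ± 1.23 and 4.82 ± 0.740 CPM in saline, young serum and EV-depleted serum. Among satellite cell genes, Pax7, the factor that defines these stem cells, was at 1.23 ± 0.194 CPM in saline and 1.95 ± 0.258 in young serum (unadjusted p = 0.0310, adjusted p = 0.200, limma). Sdc4 went the other way, at 28.7 ± 3.28 and 21.5 ± 2.10 CPM (unadjusted p = 0.0112, adjusted p = 0.180, limma). After young serum 4 of the 8 tested satellite cell genes were higher and 4 lower than in saline. At an unadjusted p below 0.05, 1 was higher and 1 lower, where 10.5% of all genes were higher and 11.4% lower. None of the 8 passed. The score of that list followed the 9 FAP markers with r = 0.31 over the 11 libraries and 0.65 with group means removed, and 0.30 without EV-depleted replicate 3 and young serum replicate 4.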
